A study of Homo sapiens with 8 samples.

Results

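The 329 sgRNAs described here targeted 47 genes for receptors of GABA, glycine, glutamate and acetylcholine (nicotinic type), out of 10429 sgRNAs and 1420 targeted genes in a CRISPR-Cas9 knockout screen of regulators of the arginine methyltransferase PRMT5. They were taken by gene symbol alone, as every row of the sgRNA table whose gene belongs to the GABA-A, GABA-B, glycine, AMPA, kainate, NMDA, metabotropic glutamate or nicotinic receptor families, and each of the 47 genes had 7 sgRNAs. The cells were COV362, an established line of high-grade serous ovarian cancer, made resistant to platinum and labelled as wild type in genotype. All cells carried Cas9 and received the sgRNA library together, and the transduced cells were then split into 4 replicates, cultured, stained for PRMT5 and sorted. This gave 4 libraries of cells with the least PRMT5 (PRMT5lo) and 4 libraries of cells with the most PRMT5 (PRMT5hi), so both populations came from the same line and transduction and were set apart by the sorting gate. The question behind the comparison was which gene losses go with a higher or a lower PRMT5 level.

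These receptors carry fast and slow signals between nerve cells, and from nerve to muscle. GABA-A, glycine and nicotinic receptors are rings of subunits around an ion channel (Cys-loop channels), AMPA, kainate and NMDA receptors are glutamate-gated cation channels, and GABA-B and metabotropic glutamate receptors act through G proteins. Sedatives, anesthetics, antiepileptics and muscle relaxants bind them, and the library was designed around druggable proteins. The reads count sgRNAs in genomic DNA, so whether COV362 cells express any of these receptors was not measured.

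Each value is the authors' mean over the 4 libraries of a population, in CPM (reads of an sgRNA scaled to a common total of mapped reads), and values of single libraries were not analysed here. The log2 ratio of an sgRNA is log2 of CPM + 1 in PRMT5lo over CPM + 1 in PRMT5hi, with the populations assigned by the sign in the study's figure legend. The study's methods text gives the opposite sign, and under that reading PRMT5lo and PRMT5hi would change places in every comparison, with sizes and p-values as they are. The methods text also gives a stricter p limit for PRMT5lo, 0.001, so the calls under its limits could differ from those made here. As assigned here the ratio is positive where PRMT5lo cells held more of the sgRNA and negative where PRMT5hi cells held more. Because of the added 1, ratios of scarce sgRNAs come out too small on this scale. The spread between libraries enters through the authors' variance of each sgRNA's share of the reads, from which the standard error (SE) of each ratio was computed. SDs of genes describe how far the 7 sgRNAs of a gene lie apart. These share a target and are not biological replicates. Total depth, recovered from the smallest variances in the table, was 19117396 reads in PRMT5lo and 16166859 reads in PRMT5hi. The median receptor sgRNA held about 1676 reads over the 4 PRMT5lo libraries and about 1423 over the 4 PRMT5hi libraries, and the median SE of its log2 ratio was 0.23. No molecular identifiers are described for the reads, so copies made by PCR are counted too and depth speaks for counting error only. Each sgRNA's one-sided p came from the difference of its shares over the standard error, with degrees of freedom from both variances. An exact test could not be run without values of single libraries. For each gene the p-values of its sgRNAs were combined by Fisher's method and adjusted by Benjamini-Hochberg over all 1420 genes. A gene was called when this p was under 0.01 and its mean log2 ratio lay beyond 0.25 in the same direction.

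Of the 47 receptor genes, 1 was called toward PRMT5hi (*GABBR2*) and 0 toward PRMT5lo. Over all genes of the library 0.845% were called toward PRMT5hi and 0.704% toward PRMT5lo, so 1 call among 47 genes is close to the background, and no receptor gene passed an adjusted p of 0.05 in either direction. At a p under 0.01 without a limit on the mean, 2 receptor genes leaned toward PRMT5hi (*GABBR2* and *GABRA4*; background 2.68%) and 1 toward PRMT5lo (*GABRG1*; background 2.96%). At a p under 0.05 there were 5 toward PRMT5hi (background 9.3%) and 2 toward PRMT5lo (background 8.59%), and 6 of these 7 were GABA-A subunits. GABA-A subunits made up 12 of the 47 genes. Of their 84 sgRNAs, 4.76% had a one-sided p under 0.05 in each direction. Over all sgRNAs the shares were 5.82% toward PRMT5lo and 6.03% toward PRMT5hi. The other 40 genes had a p of at least 0.05 in both directions. The gene means had a median of -0.02 over the 47 receptors and -0.0033 over all genes, and 33 of 47 receptor means (70.2%) lay within 0.1 of 0, against 63.2% of all genes.

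The GABA-B receptor is a heterodimer of *GABBR1*, which binds GABA, and *GABBR2*, which couples to the G protein. All 7 sgRNAs against *GABBR2* were less abundant in PRMT5lo than in PRMT5hi cells. They stood at 73.6, 76.6, 94.6, 99.2, 50.9, 131 and 72.9 CPM in PRMT5lo, against 94.7, 94.1, 106, 102, 58.6, 174 and 91.3 CPM in PRMT5hi, in the order of their numbers in the library. The pairs do not differ equally: GABBR2_4 was nearly level, with a log2 ratio of -0.04 (SE 0.14), and GABBR2_6 had the most negative ratio, -0.40 (SE 0.13, one-sided p of 0.0101). *GABBR2* had a mean log2 ratio of -0.25 with an SD of 0.13, so its sgRNAs were 1.19-fold more abundant in PRMT5hi cells. If the sgRNAs are taken as independent, the authors' variances give this mean an SE of 0.07. Its p toward PRMT5hi was 0.00302 by Fisher's method and its adjusted p 0.209, which does not pass. It was the only receptor gene with all 7 sgRNAs on the same side, as were 1.2% of all genes toward PRMT5hi and 0.915% toward PRMT5lo. *GABBR2* lies on chromosome 9 of GRCh38 from 98288109 to 98708935.

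The call of *GABBR2* lies at the edge of the limit on the mean. Its mean was -0.255 against a limit of -0.25, and the called status was kept in 3 of 7 cases when 1 sgRNA was left out. Without GABBR2_6 the mean was -0.23 and the p 0.0226. Without GABBR2_1, GABBR2_2 or GABBR2_7 the means were -0.237, -0.248 and -0.244, with p-values of 0.00603, 0.00331 and 0.00569. With CPM + 5 or CPM + 10 in place of CPM + 1 the means were -0.244 and -0.232, which do not reach the limit either. All 7 ratios were negative, so none of these settings could have changed the direction of the mean.

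*GABBR1*, the partner subunit, was not called, and its mean lay on the other side of 0, at 0.08 (SD 0.44). This mean rested on 1 sgRNA, GABBR1_1, which stood at 53.9 CPM in PRMT5lo and 26.6 CPM in PRMT5hi, a log2 ratio of 0.99 with an SE of 0.51. The remaining ratios of *GABBR1* ran from -0.38 to 0.15, 4 of its 7 sgRNAs were more abundant in PRMT5hi cells, its median was -0.06, and without GABBR1_1 its mean was -0.07. The difference between the subunits was not tested, since sgRNAs are not replicates of a condition. *GABBR1* lies on chromosome 6 from 29602238 to 29633183.

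GABA-A receptors are the chloride channels that open when GABA binds, and most hold alpha, beta and gamma subunits together. The 84 sgRNAs against 12 GABA-A subunits had a median log2 ratio of -0.02, with 39 more abundant in PRMT5lo and 45 in PRMT5hi. Of the alpha subunits, 5 of 6 had a mean below 0, as did 2 of 3 beta subunits and 1 of 3 gamma subunits. The medians over sgRNAs were -0.10 for alpha, 0.01 for beta and 0.09 for gamma subunits, with SDs of 0.29, 0.24 and 0.19. The differences between these groups were not tested. No GABA-A gene passed both limits.

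*GABRA4*, an alpha subunit of receptors outside the synapse, came closest toward PRMT5hi. Its 7 sgRNAs stood at 139, 72.5, 142, 163, 81.0, 66.9 and 63.5 CPM in PRMT5lo, against 178, 95.1, 156, 156, 83.4, 76.0 and 75.9 CPM in PRMT5hi. All but GABRA4_4 were less abundant in PRMT5lo cells. The gene mean of -0.19 (SD 0.16), or 1.14-fold more in PRMT5hi, came with a p of 0.00158 by Fisher's method and an adjusted p of 0.149. The p came mostly from GABRA4_1, with a log2 ratio of -0.36, an SE of 0.04 and a one-sided p of 5.24e-05, the smallest of any receptor sgRNA (adjusted p over all sgRNAs of 0.0684). Its variance stood at the floor set by read counting in both populations, below which the authors' estimate does not go (the smallest variance). Without GABRA4_1 the p of *GABRA4* was 0.237 and its mean -0.16.

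*GABRG1*, a gamma subunit, was the only receptor gene at a p under 0.01 toward PRMT5lo. Its sgRNAs stood at 109, 140, 252, 160, 175, 88.5 and 93.9 CPM in PRMT5lo, against 81.5, 114, 247, 132, 164, 91.8 and 76.9 CPM in PRMT5hi. Of these, 6 were more abundant in PRMT5lo, and GABRG1_6 was not. The gene mean of 0.19 (SD 0.17), or 1.14-fold more in PRMT5lo, does not reach the limit of 0.25, while the median over its sgRNAs was 0.27. The p by Fisher's method was 0.00058 (adjusted p of 0.110). GABRG1_2, with a log2 ratio of 0.29, an SE of 0.04 and a one-sided p of 0.00032, was again at the smallest variance in both populations. Without GABRG1_2 the p of *GABRG1* was 0.0423, and GABRG1_4 (log2 ratio 0.27, SE 0.09, one-sided p of 0.0184) then had the smallest p of the gene.

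*GABRA6*, an alpha subunit known mainly from cerebellar granule cells, had the most negative mean of the 47 genes, -0.30 (SD 0.40), or 1.23-fold more in PRMT5hi. Its sgRNAs stood at 209, 67.7, 166, 33.8, 13.6, 68.7 and 68.0 CPM in PRMT5lo, against 224, 59.1, 181, 45.2, 29.9, 82.1 and 83.8 CPM in PRMT5hi, and all but GABRA6_2 were less abundant in PRMT5lo. The size of the mean rested largely on GABRA6_5, the receptor sgRNA with the most negative ratio, -1.08, which held only about 259 reads in PRMT5lo and 483 in PRMT5hi and had an SE of 0.70. Without GABRA6_5 the mean was -0.16. The p of *GABRA6* was 0.0444 by Fisher's method (adjusted p of 0.517), so it did not pass the limit of 0.01. *GABBR2* and *GABRA6* were the 2 receptor genes with a mean below -0.25, as were 2.54% of all genes, and no receptor gene had a mean above 0.25 (background 2.04%).

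Other GABA-A genes at a p under 0.05 rested on 1 or 2 sgRNAs. *GABRB1*, with a mean of -0.10 (SD 0.31, p toward PRMT5hi of 0.0428), held GABRB1_2 at 52.5 CPM in PRMT5lo and 89.8 CPM in PRMT5hi, a log2 ratio of -0.76 with an SE of 0.18 (one-sided p of 0.00169). The other 6 ratios of *GABRB1* ran from -0.11 to 0.16. *GABRA2*, with a mean of 0.12 (SD 0.26, p toward PRMT5lo of 0.0353), held GABRA2_3 at 50.7 CPM in PRMT5lo and 34.0 CPM in PRMT5hi and GABRA2_4 at 202 CPM in PRMT5lo and 165 CPM in PRMT5hi. Their log2 ratios were 0.56 (SE 0.17) and 0.29 (SE 0.08). The adjusted p-values of *GABRB1* and *GABRA2* were 0.511 and 0.508. *GABRA3*, *GABRA5*, *GABRB2* and *GABRG3* had means between -0.07 and 0.08, and no p of theirs was under 0.2.

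The GABA-A cluster on chromosome 4 from 46035769 to 47426447 holds *GABRG1*, *GABRA2*, *GABRA4* and *GABRB1*, in this order. The means of the adjacent *GABRG1* and *GABRA2* were above 0, and those of the adjacent *GABRA4* and *GABRB1* below 0. The 28 sgRNAs of this cluster were split into 14 more abundant in PRMT5lo and 14 in PRMT5hi.

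*GLRA1*, the alpha 1 subunit of the glycine receptor and the only glycine receptor gene among the members, had a mean of 0.14 (SD 0.14). Its median was 0.08, against 0.01 for the control sgRNAs. Of its 7 sgRNAs, 6 were more abundant in PRMT5lo and GLRA1_5 was level, at 243 CPM in both populations. The largest ratios were those of GLRA1_2, with 87.3 CPM in PRMT5lo and 67.0 CPM in PRMT5hi (0.38, SE 0.39), and GLRA1_7, with 183 CPM in PRMT5lo and 155 CPM in PRMT5hi (0.24, SE 0.24). The p toward PRMT5lo was 0.160 by Fisher's method (adjusted p of 0.782).

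Of the ionotropic glutamate receptors, AMPA receptors carry most fast excitation, kainate receptors tune release and excitability, and NMDA receptors pass calcium and need glutamate together with glycine or D-serine. None of their 16 genes had a p under 0.05 in either direction. The 28 AMPA sgRNAs had a median log2 ratio of -0.04, with 18 more abundant in PRMT5hi, and gene means from -0.09 (*GRIA1*) to 0.0033 (*GRIA4*), the narrowest range of the classes with 3 or more genes. *GRIA3* had sgRNAs far on both sides: GRIA3_2 stood at 51.4 CPM in PRMT5lo and 79.8 CPM in PRMT5hi (-0.62, SE 0.20), and GRIA3_1 at 31.0 CPM in PRMT5lo and 20.3 CPM in PRMT5hi (0.59, SE 0.49). The mean of *GRIA3* was -0.05 with an SD of 0.42.

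The 35 kainate sgRNAs had a median of -0.01 and gene means from -0.16 (*GRIK3*) to 0.10 (*GRIK2*). GRIK3_1, at 27.0 CPM in PRMT5lo and 40.7 CPM in PRMT5hi, had a ratio of -0.57 (SE 0.25), and GRIK2_7, at 121 CPM in PRMT5lo and 87.4 CPM in PRMT5hi, a ratio of 0.47 (SE 0.24). The clearest kainate sgRNA against its own error was GRIK5_5, at 203 CPM in PRMT5lo and 154 CPM in PRMT5hi, with a ratio of 0.39 (SE 0.07, one-sided p of 0.00064, adjusted p over all sgRNAs of 0.196). The other 6 sgRNAs against *GRIK5* ran from -0.19 to 0.28, and the mean of this gene was 0.05 (SD 0.22, p toward PRMT5lo of 0.0525).

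The 49 NMDA sgRNAs had a median of 0.01. *GRIN1*, the subunit that all NMDA receptors share, had the highest mean, 0.16 (SD 0.29), with 6 of 7 sgRNAs more abundant in PRMT5lo. Its largest ratio, 0.78, came from GRIN1_7 at 32.8 CPM in PRMT5lo and 18.7 CPM in PRMT5hi (SE 0.28), and without GRIN1_7 the mean was 0.06. *GRIN3A* had the lowest mean, -0.06 (SD 0.29), although GRIN3A_4 was among the highest single ratios at 0.51 (62.5 CPM in PRMT5lo, 43.5 CPM in PRMT5hi, SE 0.29). *GRIN2A*, *GRIN2B*, *GRIN2C*, *GRIN2D* and *GRIN3B* had means between -0.04 and 0.02. *GRIN2D* showed the tightest sgRNAs of this class, with an SD of 0.12 at a mean of 0.0049.

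Metabotropic glutamate receptors signal through G proteins, like GABA-B. Their 35 sgRNAs had a median of 0.07, with 22 more abundant in PRMT5lo, against 3 of 14 for GABA-B. Gene means ran from -0.10 for *GRM5* to 0.08 for *GRM3*, and none of the 5 genes had a p under 0.2. *GRM5* had a mean below 0 but a median of 0.04, with 4 of its 7 sgRNAs more abundant in PRMT5lo. Its most negative ratios were those of GRM5_4, at 63.2 CPM in PRMT5lo and 90.7 CPM in PRMT5hi (-0.51, SE 0.25), and GRM5_3, at 71.8 CPM in PRMT5lo and 97.7 CPM in PRMT5hi (-0.44, SE 0.33). The sgRNA of lowest abundance by the average of both populations was GRM3_4, at 8.04 CPM in PRMT5lo and 6.14 CPM in PRMT5hi, with an SE of 0.79.

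Nicotinic receptors are acetylcholine-gated channels, built in nerve cells from alpha and beta subunits and in muscle from *CHRNA1*, *CHRNB1*, *CHRND* and either *CHRNG* (fetal) or *CHRNE* (adult). The 42 sgRNAs against 6 neuronal subunits had a median of -0.02, and the 35 against the muscle subunits a median of 0.02. None of the 11 genes was called or had a p under 0.05. Among the neuronal genes the means ran from -0.14 for *CHRNA2* (SD 0.29) to 0.16 for *CHRNB4* (SD 0.16). *CHRNB4* had 6 of 7 sgRNAs more abundant in PRMT5lo, among them CHRNB4_4 at 59.0 CPM in PRMT5lo and 46.5 CPM in PRMT5hi (0.34, SE 0.13), and its p was 0.0968. *CHRNA3*, which lies beside *CHRNB4* on chromosome 15 and joins it in the ganglionic receptor, had a mean of -0.02 (SD 0.33). *CHRNA2* had 6 of 7 sgRNAs more abundant in PRMT5hi, and so did *CHRNA4*, with a mean of -0.11 (SD 0.21, p toward PRMT5hi of 0.0852). *CHRNA7* had a mean of -0.01 (SD 0.19). Part of *CHRNA7* is duplicated in the fusion gene *CHRFAM7A*, and whether any of its sgRNAs also match that copy was not tested, since guide sequences were not used here.

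Among the muscle subunits, *CHRNB1* had the lowest mean, -0.15 (SD 0.27), with CHRNB1_2 at 42.7 CPM in PRMT5lo and 63.1 CPM in PRMT5hi (-0.55, SE 0.31). *CHRND* had the most even sgRNAs of the 47 genes, with ratios from -0.13 to 0.07 and an SD of 0.07, at 54.5, 51.6, 82.4, 91.1, 164, 76.1 and 110 CPM in PRMT5lo, against 52.5, 50.6, 90.1, 92.0, 165, 72.2 and 106 CPM in PRMT5hi. *CHRNG*, its neighbour on chromosome 2, had a mean of 0.03 (SD 0.20), *CHRNE* of -0.03 (SD 0.24) and *CHRNA1* of -0.07 (SD 0.26).

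Set side by side, the medians over sgRNAs were -0.15 for GABA-B, -0.04 for AMPA, -0.02 for neuronal nicotinic, -0.02 for GABA-A, -0.01 for kainate, 0.01 for NMDA, 0.02 for muscle nicotinic, 0.07 for metabotropic glutamate and 0.08 for glycine receptors. The median was -0.0018 over all 9929 targeting sgRNAs and 0.01 over the 500 control sgRNAs. The differences between classes were not tested, and the order depended on the sgRNAs counted. Without sgRNAs at the smallest variance the median was -0.09 for muscle nicotinic, -0.07 for neuronal nicotinic, -0.03 for NMDA and 0.24 for glycine receptors, so that muscle nicotinic and NMDA receptors lay on the other side of 0. The classes at both ends are also the smallest, with 14 and 7 sgRNAs. The ratios of all receptor sgRNAs had an SD of 0.25, against 0.29 for all targeting and 0.25 for control sgRNAs. The SD of the gene means was 0.10 for the receptors and 0.12 for all genes.

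At a one-sided p under 0.05, 14 receptor sgRNAs (4.26%) were more abundant in PRMT5lo and 12 (3.65%) in PRMT5hi, against 5.82% and 6.03% of all sgRNAs. Among the 500 control sgRNAs the shares were 9.0% and 6.6%, both above the rate that a limit of 0.05 allows for. The gene p-values by Fisher's method are built from these one-sided p-values. No receptor sgRNA passed an adjusted p of 0.05, while 0.0384% of all 10429 sgRNAs did toward PRMT5lo and 0% toward PRMT5hi. By class, those toward PRMT5lo were 4 GABA-A, 3 NMDA, 3 neuronal nicotinic and 1 each of glycine, AMPA, kainate and metabotropic glutamate sgRNAs. Those toward PRMT5hi were 4 GABA-A, 2 NMDA, 2 metabotropic glutamate, 2 neuronal nicotinic and 1 each of GABA-B and AMPA sgRNAs, and muscle subunits had 0 in either direction. The variance of an sgRNA moved with these counts: of the 97 receptor sgRNAs at the smallest variance in either population 14 had such a p (14.4%), against 12 of the other 232 (5.17%). The shares were 22.8% and 7.78% over all sgRNAs. Without the sgRNAs at the smallest variance, 4 of the 14 receptor sgRNAs toward PRMT5lo and 8 of the 12 toward PRMT5hi were left. Why such p-values were more frequent at the smallest variance was not tested.

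Genes that make, break down or carry the same transmitters were also in the library. Of 7 genes for GABA, glycine and glutamate handling, none was called. *ABAT*, the GABA transaminase, and *ALDH5A1*, the next enzyme of GABA breakdown, had means of 0.0075 and -0.01. *GLUL*, glutamine synthetase, had the mean farthest from 0, -0.14 (SD 0.32). *CHAT*, *ACHE* and *BCHE*, which make and break down acetylcholine, had means of 0.06, 0.11 and 0.03 with no p under 0.1.

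The receptors most like the members had gene means within the range of the members' means. The 5 serotonin type 3 genes, Cys-loop channels like the GABA-A and nicotinic receptors, had means from -0.19 (*HTR3D*) to 0.13 (*HTR3A*) and a median over 35 sgRNAs of -0.09. The 5 muscarinic genes, the G protein-coupled acetylcholine receptors, had means from -0.14 (*CHRM1*) to 0.06 (*CHRM5*) and a median of 0.0078. *P2RX1*, an ATP-gated channel, had a mean of 0.18 (SD 0.22). None of these 11 genes was called or had a p under 0.01 in either direction. At a p under 0.05 by Fisher's method, *CHRM3* leaned toward PRMT5lo (0.0209; background 8.59%). Toward PRMT5hi there were *CHRM2* (0.0337) and *HTR3E* (0.0263, with a mean of 0.05), against a background of 9.3%. Of the muscarinic sgRNAs, 8.57% had a one-sided p under 0.05 toward PRMT5lo and 11.4% toward PRMT5hi. For serotonin type 3 sgRNAs these shares were 2.86% and 5.71%.

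Receptor sgRNAs were measured about as deeply as the rest of the library. Their median abundance was 87.8 CPM in PRMT5lo and 88.0 CPM in PRMT5hi, against 84.9 and 85.0 CPM for all targeting sgRNAs and 123 CPM in both populations for control sgRNAs. Only 9 of the 329 stood under 20 CPM in either population, and the most abundant was GABRB1_5, at 344 CPM in PRMT5lo and 307 CPM in PRMT5hi. By class the medians ran from 74.1 CPM in PRMT5lo and 76.6 CPM in PRMT5hi for muscle nicotinic to 105 CPM in PRMT5lo and 110 CPM in PRMT5hi for NMDA sgRNAs. The spread of the ratio moved with abundance: cut into tertiles of the whole library, the SD over receptor sgRNAs was 0.32 in the lowest, 0.24 in the middle and 0.18 in the highest, against 0.38, 0.26 and 0.21 for all targeting sgRNAs. The single ratios beyond 0.7 in either direction all came from sgRNAs under 90 CPM in both populations.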

How the data were processed

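sgRNAs were amplified from genomic DNA of sorted COV362 cells and read from a single end. Read counting against the library and the comparison of 4 PRMT5lo with 4 PRMT5hi libraries were done by the authors in CB2. Among the tools and builds in the submitters' processing notes are FastQC and hg38 (tool versions: not given in the sources used here). Each deposited CPM value is the authors' mean over the 4 libraries of a population. The deposited fraction of each sgRNA is the authors' estimate of its share of the reads, with its variance over libraries. The columns name the populations only a and b, and they were read as PRMT5hi and PRMT5lo after the sign in the study's legend, on which the direction of every ratio rests, since the methods text has the opposite sign. The authors' own fold changes and p-values per sgRNA and gene were not used.

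From these values the score of each sgRNA (difference of fractions over its standard error), Fisher's combination and Benjamini-Hochberg adjustment were computed in Python 3.11.15 with scipy 1.17.1, and checked on simulated data. In the simulation all sgRNAs of a gene shared the same change, and all sgRNAs the same excess spread between libraries. It therefore checks the computation and not the error rates in these data. Depth was recovered as the largest value of share × (1 - share) / variance. Values of single libraries were not analysed here, so no count test or left-out library was possible. The limits of 0.01 and 0.25 follow the legend of the study's enrichment plot. The methods text has a p limit of 0.001 for PRMT5lo. With the signs of the methods text, *GABBR2* (p of 0.00302 by Fisher's method) would fall under that limit for PRMT5lo and would not pass it. The members, the lists of related genes and the limits were chosen with earlier results of these data known. Every sgRNA is given for *GABBR2*, *GABRA6* and each gene past a limit, the highest and lowest means are named in each class, and so are the 5 highest and 5 lowest ratios among sgRNAs of at least 20 CPM. Results for some of these genes are not reported here. Other sgRNAs and genes named were chosen after their values were seen. Alternatives covered pseudocounts, low values, small variances, centring, Stouffer's method, the median and the limits, and the minimum of 3 sgRNAs per gene after a filter was chosen after the data were seen. All 47 symbols were matched in the RefSeq table of GRCh38.p14. The replicates were split after transduction, so the spread behind each p-value is at most that of parallel cultures of a single transduction.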

Additional observations from a re-analysis of the deposited data

How the results depend on the processing

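No paired analysis was possible because the values are the authors' means over the 4 libraries of a population, and no library could be left out for the same reason. The count of receptor genes called toward PRMT5hi (1, *GABBR2*) was 0 with CPM + 5, CPM + 10, a p limit of 0.001 or an adjusted p of 0.05, and 2 with a p limit of 0.05 (with *GABRA6*) or with no limit on the mean (with *GABRA4*). The count toward PRMT5lo (0) was 1 with the median over sgRNAs (0.27) or with no limit on the mean, *GABRG1* both times. Of the receptor sgRNAs at p under 0.05 toward PRMT5lo (14), 4 were left without sgRNAs at the smallest variance and 0 after adjustment. Of those toward PRMT5hi (12), 8 and 0 were left under the same settings. With variances from the trend over 20 abundance bins, the p-values of all sgRNAs were computed anew. Under this setting 5 receptor sgRNAs had a p under 0.05 toward PRMT5lo and 8 toward PRMT5hi, whether or not they were among those counted before. Without sgRNAs at the smallest variance the class medians were 0.24 for glycine (3 sgRNAs), -0.0856 for muscle nicotinic, -0.0686 for neuronal nicotinic, -0.0340 for NMDA and -0.0018 for GABA-A receptors. The NMDA median was -9.04e-05 when centred on the control median, and the kainate median 0.0022 at 20 CPM or more in both populations. The mean of *GABBR2* was -0.244 with CPM + 5 and -0.232 with CPM + 10, past the p limit and short of the limit on the mean. Means changed sign for *CHRNG* without sgRNAs at the smallest variance (-0.0605), for *GABBR1* (-0.0567) and *GRM5* (0.0356) as medians, and for *GRIA4* when centred on the control median (-0.0075) or as a median (-0.0261). The cause was not tested.

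Leaving out each sgRNA singly gave means of -0.29 to -0.23 for *GABBR2*, -0.23 to -0.15 for *GABRA4*, 0.15 to 0.23 for *GABRG1* and -0.38 to -0.16 for *GABRA6*. The mean crossed 0 for *GABBR1* (-0.0722 to 0.157), *GRIA4* (-0.0571 to 0.0618) and *CHRNG* (-0.0198 to 0.0878). Without sgRNAs at the smallest variance the p of *GABRA4* was 0.429 over 5 sgRNAs and that of *GABRG1* 0.0920 over 3.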
